A study of Mus musculus with 16 samples.

Results

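The sirtuins are the 7 genes Sirt1 to Sirt7, taken by symbol from the 30884 genes counted in mouse heart, and all 7 were detected in every library. The hearts came from male wild-type C57BL/6 mice aged 8 weeks. Doxorubicin, an anthracycline drug that injures heart muscle, was injected as a single dose of 15 mg/kg, and sham mice got saline. Some mice had received nicotinamide mononucleotide (NMN), from which cells make NAD, at 500 mg/kg and 30 min before that injection, and the others its vehicle. The hearts were collected on day 5, with 4 libraries in each of the groups, which are sham vehicle and sham NMN on one side and, on the other, doxorubicin vehicle and doxorubicin NMN.

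Sirtuins remove acyl groups from lysines of proteins and consume NAD with every group removed, so their activity depends on the supply of NAD as well as on their amount. SIRT1, SIRT6 and SIRT7 act mainly in the nucleus and SIRT2 mainly in the cytosol, while SIRT3, SIRT4 and SIRT5 are imported into mitochondria, which fill much of a heart muscle cell. SIRT3 is the main deacetylase of the mitochondrial matrix. The tables measure transcripts, not protein, NAD or enzyme activity.

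Totals ran from 13927970 to 16400069 counts per library, and 14716 genes had enough counts to be tested. Levels are given as CPM, the counts of a gene relative to the scaled size of its library, or as FPKM, which also divides by gene length, where genes are compared with each other. The labels number the replicates but do not say that they are separate animals, so the tests measure the spread between these libraries. A division that crosses the groups was known from earlier work on these data. Scand1, Cox11 and Mrps34 were low in 6 libraries, namely replicates 3 and 4 of sham vehicle and of doxorubicin vehicle and replicate 4 of each NMN group. These 6 are called the smaller set and the other 10 the larger set. The smaller set has 1 library in each NMN group, which is assumed to vary like the others. The clock gene Arntl divided the sham libraries along the same lines, with 1.67 to 2.04 CPM in the larger set of sham vehicle and 27.6 to 27.7 in the smaller set. In doxorubicin vehicle Arntl was at 8.44 to 8.83 CPM in the larger set and at 30.3 to 30.7 in the smaller set. The time of day of collection is not given in the sources used here. Replicate 3 of doxorubicin NMN also stood apart within its group, with a summed level of 4 red cell genes of 295 CPM against 0.377 to 4.65 CPM in the others. The sum was 310 to 527 CPM in sham vehicle and 210 to 306 CPM in sham NMN, so replicate 3 lay within the range of sham NMN. Values within the sets are given beside each result that rests on them.

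In sham vehicle hearts, Sirt2 was the highest of the family per length, at 15.6 ± 0.222 FPKM (SD, n = 4). Sirt4 came next at 7.18 ± 0.145 FPKM, above Sirt3 at 5.25 ± 0.416 and Sirt5 at 5.19 ± 0.639, whose ranges overlapped. Sirt1 at 2.95 ± 0.559 FPKM, Sirt7 at 2.41 ± 0.232 and Sirt6 at 2.19 ± 0.0771 were lowest, and the ranges of neighbours in that order overlapped. In doxorubicin vehicle the order of the mean levels was Sirt2 at 24.2 FPKM, Sirt1 at 5.80, Sirt4 at 4.35, Sirt5 at 3.87, Sirt7 at 3.57, Sirt6 at 2.47 and Sirt3 at 2.36. Sirt3 thus stood last of the family in doxorubicin vehicle. Only Sirt2 was clear of its neighbour there, since every other pair of neighbours in that order overlapped.

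After doxorubicin without NMN, 3 sirtuins rose and 3 fell among 7. Among all genes tested, 24.8% were called higher and 23.9% lower, so calls in either direction were common in the whole table. Over all libraries the mitochondrial members Sirt3, Sirt4 and Sirt5 fell, Sirt1, Sirt2 and Sirt7 rose, and Sirt6 was not called (edgeR quasi-likelihood test with Benjamini-Hochberg adjustment over all genes tested, called at an adjusted p under 0.05). In the larger set alone Sirt2 and Sirt6 were called higher and Sirt3 and Sirt4 lower. The shares above are over all libraries and do not hold within a set. Fewer of all genes tested were called in the larger set than over all libraries, and their number is given with the dependence on processing. In the smaller set alone Sirt1, Sirt2 and Sirt7 had positive folds and the other members negative ones, among them Sirt6 at -0.56.

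**Figure D1:**
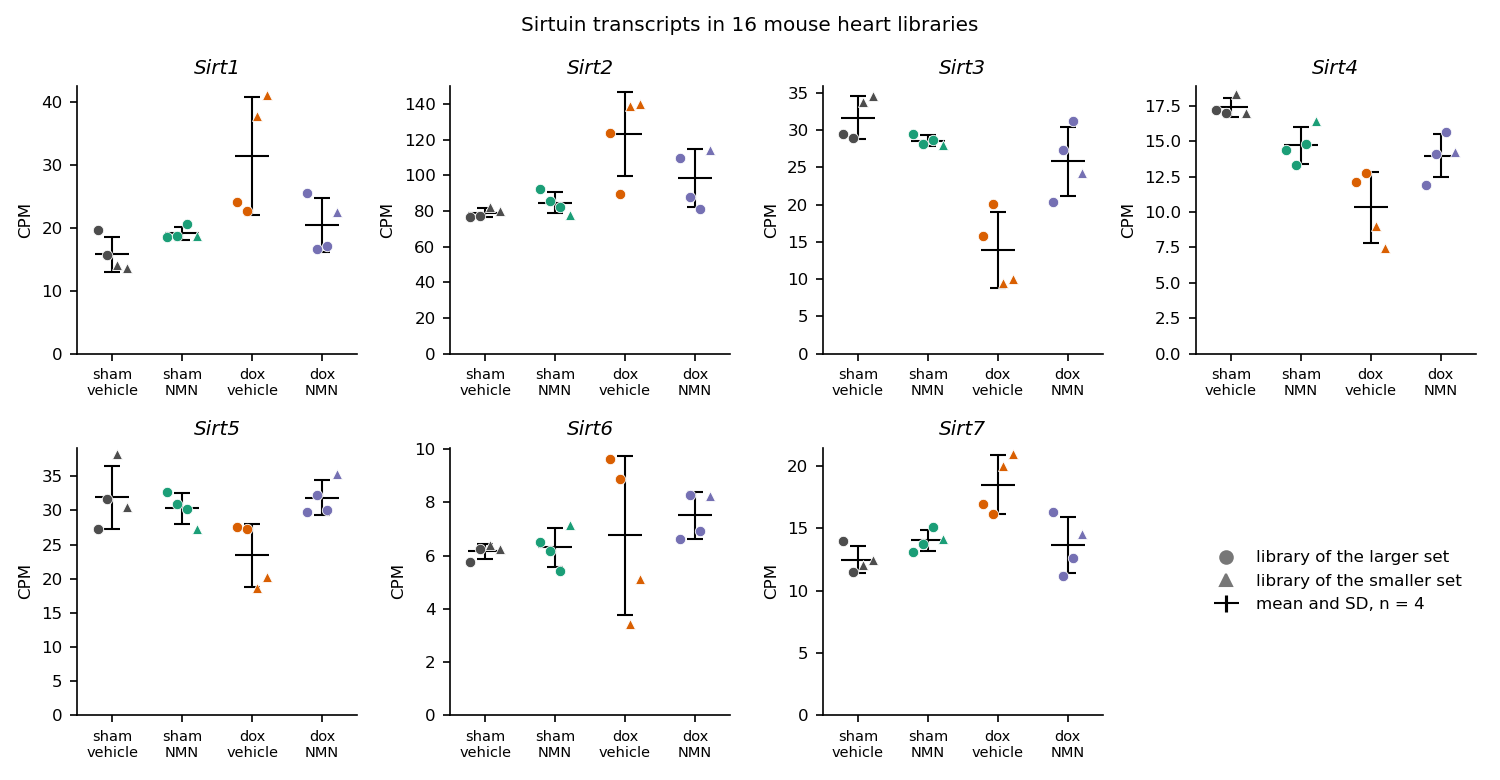
Level of each sirtuin (vertical axis, CPM) in the 16 libraries of the 4 groups, with the mean and SD of 4 libraries as lines. Circles are libraries of the larger set and triangles those of the smaller set. Sirt3 sits at 9.44 to 20.1 CPM in doxorubicin vehicle, below every library of the other groups.

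Sirt3 (chr7:140863666-140882309, minus strand, GRCm38) encodes the mitochondrial deacetylase that acts on superoxide dismutase and on enzymes of fat oxidation. Its levels in sham vehicle were 29.5, 28.9, 33.8 and 34.6 CPM for replicates 1 to 4, and in doxorubicin vehicle 15.8, 20.1, 9.44 and 9.98 CPM. Every doxorubicin vehicle library lay under every sham vehicle library, and replicates 3 and 4 were the lowest of the 16. The log2 fold was -1.19 (SE 0.194, adjusted p = 0.00015). In the larger set alone, with 2 libraries against 2, it was -0.70 (adjusted p = 0.0122), and in the smaller set alone -1.81 (adjusted p = 2.1e-07). With NMN before doxorubicin the 4 levels were 20.3, 27.4, 31.3 and 24.2 CPM. All 4 were above the highest doxorubicin vehicle library, and replicate 3, the one with red cell transcripts, was the highest. Against doxorubicin vehicle the log2 fold was 0.90 (SE 0.194, adjusted p = 0.00235), with 0.55 in the larger set alone (adjusted p = 0.0323).

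The start of Sirt3 lies beside that of Psmd13, which encodes a lid subunit of the proteasome and is read from the opposite strand. The RefSeq starts of both genes are 85 bases apart, so the promoter window of Sirt3 also holds the start of Psmd13. It is shown because these neighbours changed in opposite directions. The window (RefSeq, GRCm38.p6, chr7:140882260-140882559, minus strand, from 250 bases before to 50 bases after the start) has a GC content of 61.0%. In capitals is its single match to CCGGAAG, the core bound by ETS family factors, searched on both strands and found here as CTTCCGG.
Sirt3: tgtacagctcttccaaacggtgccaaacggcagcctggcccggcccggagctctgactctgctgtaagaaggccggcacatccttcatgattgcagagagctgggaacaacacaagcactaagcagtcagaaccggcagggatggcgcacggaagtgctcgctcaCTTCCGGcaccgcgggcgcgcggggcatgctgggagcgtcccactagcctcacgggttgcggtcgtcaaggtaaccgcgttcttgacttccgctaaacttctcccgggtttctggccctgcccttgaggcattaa
The ETS core occurs in 8.86% of 32851 RefSeq promoter windows of this length, and among the sirtuins also in windows of Sirt6 and Sirt7. A second RefSeq window of Sirt3, starting at base 140881820, holds no match.

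Psmd13 and Ric8a, a guanine nucleotide exchange factor gene at the other end of Sirt3, share exon bases with it on the opposite strand. The overlap is 342 bases with Psmd13 and 418 bases with Ric8a, or 5.73% and 6.998% of the exon bases of Sirt3. The library kit does not keep the strand, so reads from these stretches cannot be assigned to either gene. Psmd13 was at 48.1, 49.5, 54.1 and 47.9 CPM in sham vehicle and at 91.9, 72.1, 106.4 and 110.4 CPM in doxorubicin vehicle. It rose in every doxorubicin vehicle library above the sham vehicle range, with a log2 fold of 0.93 (SE 0.116, adjusted p = 1.6e-05), while Sirt3 fell. In doxorubicin NMN it was at 51.0 to 63.2 CPM, with a log2 fold against doxorubicin vehicle of -0.74 (adjusted p = 0.00022). Ric8a also rose after doxorubicin, by a log2 fold of 0.82 (adjusted p = 6.4e-05), and was lower with NMN by a log2 fold of -0.52 (adjusted p = 0.0036). Within the larger set Psmd13 rose by 0.75 (adjusted p = 0.00114), and within the smaller set by 1.09 (adjusted p = 1.3e-06). The fall of Sirt3 thus ran against the change of both genes it overlaps.

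**Figure D2:**
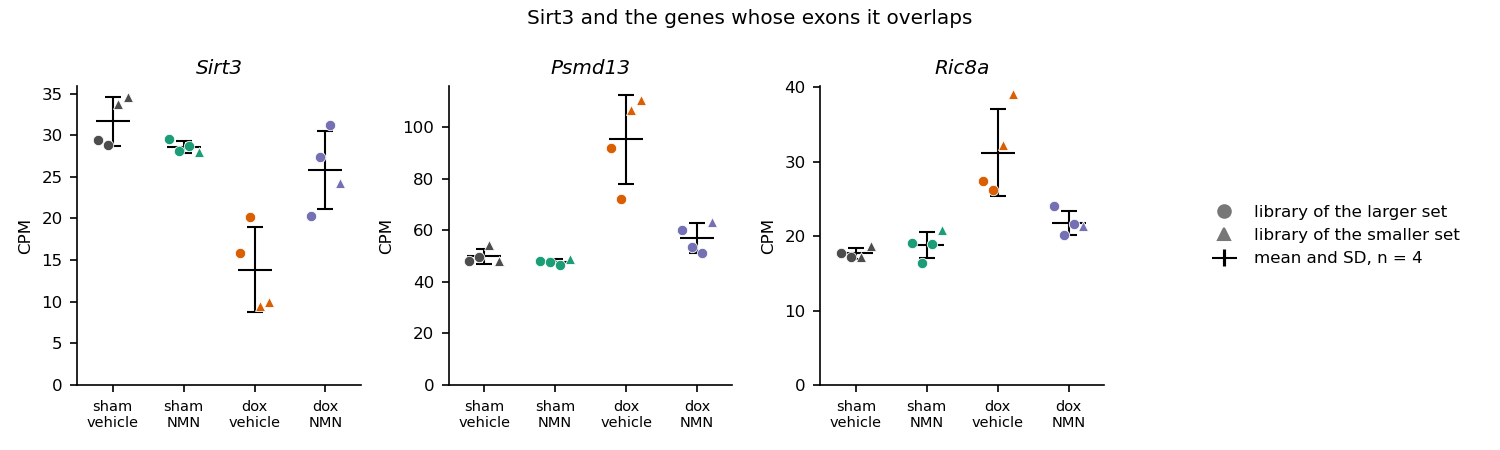
Levels (vertical axes, CPM) of Sirt3 and of the genes whose exons overlap it, Psmd13 and Ric8a, in the 16 libraries, with the mean and SD of 4 libraries per group. Circles are the larger set and triangles the smaller set. Psmd13 stands at 72.1 to 110.4 CPM in doxorubicin vehicle, where Sirt3 is lowest.

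Sirt4 (chr5:115478010-115484725, minus strand) encodes the mitochondrial member with ADP-ribosyltransferase, lipoamidase and deacylase activity, known to restrain glutamate dehydrogenase. Its levels were 17.2, 17.0, 18.3 and 17.0 CPM in sham vehicle and 12.1, 12.8, 8.98 and 7.42 CPM in doxorubicin vehicle. The groups did not overlap, and replicates 3 and 4 of doxorubicin vehicle were again lowest. The log2 fold was -0.75 (SE 0.148, adjusted p = 0.00064), with -0.46 in the larger set (adjusted p = 0.0353) and -1.10 in the smaller set (adjusted p = 7.5e-05). In doxorubicin NMN the levels were 11.9, 14.1, 15.7 and 14.3 CPM, of which replicate 1 lay within the doxorubicin vehicle range and the other three above it. Sirt4 rose with NMN by a log2 fold of 0.44 (SE 0.149, adjusted p = 0.0302), while in the larger set alone the value was 0.16 (adjusted p = 0.438).

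Sirt5 (chr13:43365496-43395203, plus strand) encodes the mitochondrial enzyme that removes succinyl, malonyl and glutaryl groups. Its levels were 27.3, 31.7, 38.3 and 30.5 CPM in sham vehicle and 27.5, 27.3, 18.7 and 20.2 CPM in doxorubicin vehicle. Here the larger-set libraries of doxorubicin vehicle lay at the lower edge of sham vehicle, and the smaller-set libraries well below it. The log2 fold over all libraries was -0.45 (SE 0.134, adjusted p = 0.0114), with -0.11 in the larger set (adjusted p = 0.508) and -0.82 in the smaller set (adjusted p = 2e-04). In doxorubicin NMN Sirt5 was at 29.8, 32.3, 30.0 and 35.3 CPM, above every doxorubicin vehicle library. The log2 fold with NMN was 0.44 (SE 0.134, adjusted p = 0.0171), and 0.16 in the larger set alone (adjusted p = 0.264).

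The window of Sirt5 (RefSeq, GRCm38.p6, chr13:43365285-43365584, plus strand, same span around the start) is the only sirtuin window with AAGGTCA, the element that ERR alpha and related nuclear receptors bind, searched on both strands. It is shown because Esrra, the gene of ERR alpha, had the level pattern most like that of Sirt5 (described with the other such genes). The match is in capitals, and 4.72% of all windows hold one.
Sirt5: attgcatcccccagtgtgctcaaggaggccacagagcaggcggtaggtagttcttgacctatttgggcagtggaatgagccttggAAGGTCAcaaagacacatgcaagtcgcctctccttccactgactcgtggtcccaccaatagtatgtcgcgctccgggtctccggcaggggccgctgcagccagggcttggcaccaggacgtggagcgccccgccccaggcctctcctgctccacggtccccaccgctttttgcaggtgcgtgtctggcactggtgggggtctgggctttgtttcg
A match of letters does not show that the factor binds there.

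Sirt1 (chr10:63319005-63381704, minus strand) encodes the nuclear deacetylase of p53, FOXO factors, PGC-1 alpha and the clock proteins BMAL1 and PER2. Its levels in sham vehicle were 19.7, 15.7, 14.2 and 13.6 CPM, and in doxorubicin vehicle 24.1, 22.7, 37.9 and 41.2 CPM. The groups did not overlap, and the smaller-set libraries were the lowest in sham vehicle and the highest in doxorubicin vehicle. The log2 fold was 0.99 (SE 0.193, adjusted p = 0.00058), but 0.40 in the larger set alone (adjusted p = 0.147) and 1.51 in the smaller set alone (adjusted p = 6.3e-07). With NMN before doxorubicin Sirt1 was at 25.6, 16.6, 17.1 and 22.5 CPM, and replicate 1 overlapped the doxorubicin vehicle range. Its log2 fold with NMN was -0.62 (SE 0.191, adjusted p = 0.0186), with -0.24 in the larger set (adjusted p = 0.351). Dnajc12, a co-chaperone gene, starts 739 bases from the GENCODE start of Sirt1, which is 42669 bases from its RefSeq start. Dnajc12 was at 5.81 to 7.97 CPM in sham vehicle and 6.36 to 8.57 in doxorubicin vehicle and was not called (log2 fold 0.14, adjusted p = 0.499). Gm16145, on the opposite strand between the RefSeq and GENCODE starts of Sirt1, had 0 counts in all 16 libraries.

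The promoter window of Sirt1 is shown because Sirt1 moved more after doxorubicin in the smaller set than in the larger set. This is not particular to Sirt1, since Sirt2, Sirt3, Sirt4, Sirt5 and Sirt7 did so too. Sirt3 moved furthest there (-1.81, against 1.51 for Sirt1). The sham libraries of the smaller set differed from those of the larger set in clock genes such as Arntl. Not all clock genes kept that direction in doxorubicin vehicle, where Arntl did and Per1 did not. The Sirt1 window is the only sirtuin window that holds CACGTG. This is the E-box bound by CLOCK and BMAL1 and by other factors of their class such as MYC and USF. The window (RefSeq, GRCm38.p6, chr10:63338986-63339285, minus strand, same span around the start) lies 42669 bases inside the gene's span in the tables. It has a GC content of 79.0% and 2 matches, in capitals, against 7.15% of all windows with any match.
Sirt1: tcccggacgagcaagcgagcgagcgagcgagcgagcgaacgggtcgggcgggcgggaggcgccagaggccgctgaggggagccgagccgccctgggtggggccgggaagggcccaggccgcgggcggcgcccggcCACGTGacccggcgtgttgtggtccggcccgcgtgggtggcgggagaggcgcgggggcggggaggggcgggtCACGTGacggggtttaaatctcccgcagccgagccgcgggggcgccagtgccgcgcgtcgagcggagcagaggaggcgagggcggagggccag
Matches are descriptions of the letters, not sites shown to be used, and their part in the levels of Sirt1 was not tested.

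Sirt7 (chr11:120618372-120625240, minus strand), whose nucleolar protein acts on ribosomal RNA transcription, was at 14.0, 11.5, 12.1 and 12.5 CPM in sham vehicle. In doxorubicin vehicle it was at 16.95, 16.1, 19.99 and 21.02 CPM, and all 4 libraries were above the sham vehicle range. Sirt7 rose by a log2 fold of 0.57 (SE 0.127, adjusted p = 0.00166), with 0.38 in the larger set (adjusted p = 0.138) and 0.74 in the smaller set (adjusted p = 0.00047). In doxorubicin NMN the levels were 16.3, 11.2, 12.6 and 14.5 CPM, and only replicate 1 reached the doxorubicin vehicle range. The fall with NMN was -0.44 on the log2 scale (SE 0.126, adjusted p = 0.0132), and in the larger set the value was -0.31 (adjusted p = 0.199). Its exons share 124 bases, 2.41% of the total, with Mafg on the same strand, a small MAF factor gene that rose by 0.92 (adjusted p = 7.1e-05) and was lower with NMN by a log2 fold of -0.84 (adjusted p = 0.00031).

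Sirt2 (chr7:28766735-28788661, plus strand), the cytosolic tubulin deacetylase, was at 76.7, 77.3, 82.3 and 80.2 CPM in sham vehicle and at 123.9, 89.4, 138.8 and 139.9 CPM in doxorubicin vehicle. Replicate 2 was the lowest doxorubicin vehicle library, yet above all of sham vehicle. The log2 fold was 0.64 (SE 0.134, adjusted p = 0.00106), and Sirt2 is the only riser that was also called in the larger set alone (0.47, adjusted p = 0.0462). In doxorubicin NMN the levels were 109.6, 87.9, 80.9 and 114.2 CPM, overlapping doxorubicin vehicle, and the log2 fold of -0.33 (SE 0.134, adjusted p = 0.0667) was not called. Nfkbib, an inhibitor of NF-kappa B, shares 42 exon bases (0.834%) with Sirt2 on the other strand and rose by 1.17 (adjusted p = 0.00048), with 0.55 in the larger set alone (adjusted p = 0.0730).

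Sirt6 (chr10:81621785-81627797, minus strand) encodes a chromatin deacetylase tied to DNA repair and to glycolytic genes. It was at 5.74, 6.27, 6.40 and 6.25 CPM in sham vehicle, a narrow range, and at 9.64, 8.89, 3.41 and 5.12 CPM in doxorubicin vehicle. The larger-set libraries of doxorubicin vehicle lay above all of sham vehicle and the smaller-set libraries below it. Over all libraries the log2 fold of Sirt6 was 0.14 (SE 0.238, adjusted p = 0.657). Within the larger set it was 0.62 (adjusted p = 0.0229). Within the smaller set it was -0.56, from 52 and 78 counts in doxorubicin vehicle against 98 and 100 in sham vehicle. The value over all libraries thus averages folds of opposite sign, each from few libraries. The difference between the sets was not tested. In doxorubicin NMN Sirt6 was at 6.61, 8.29, 6.93 and 8.26 CPM, with a log2 fold against doxorubicin vehicle of 0.15 (SE 0.237, adjusted p = 0.644). This value too joins opposite signs, -0.35 in the larger set (adjusted p = 0.148) and 0.95 in the smaller set, which has 1 doxorubicin NMN library. Ankrd24, which starts 743 bases from Sirt6, was at 7.57 to 10.7 CPM in sham vehicle and 1.97 to 7.74 in doxorubicin vehicle (log2 fold -0.86, adjusted p = 0.0192). Its call was lost without sham vehicle replicate 1 or doxorubicin vehicle replicate 3 (adjusted p = 0.0509 and 0.0578).

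**Figure D3:**
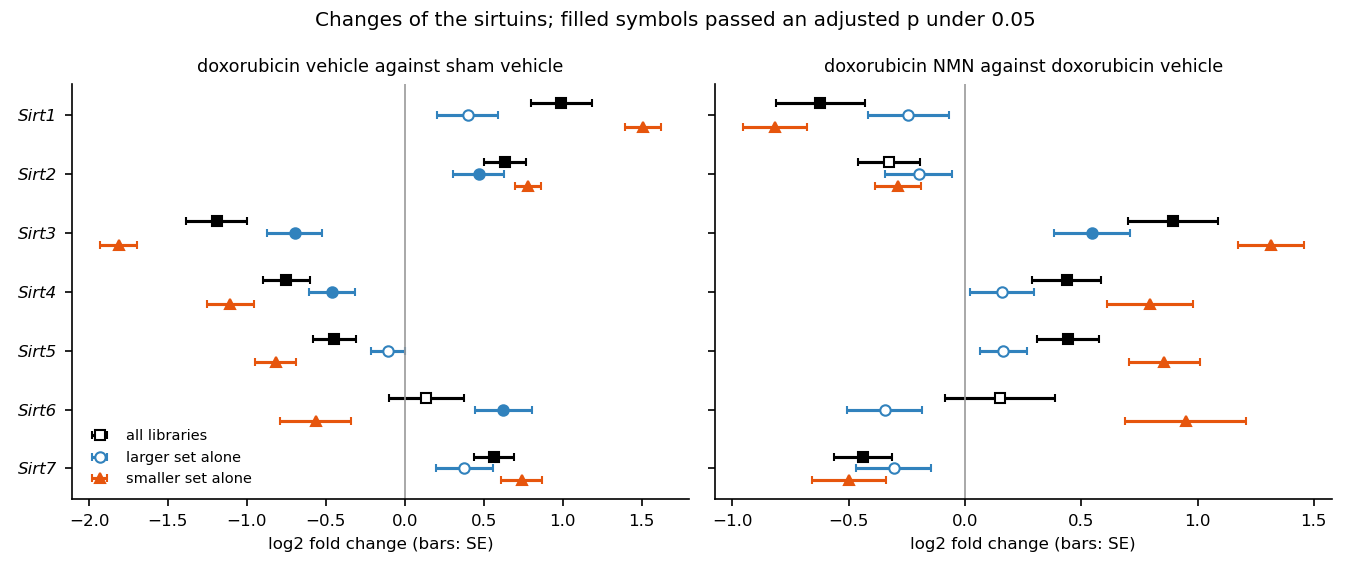
Log2 fold change (horizontal axes) of each sirtuin with its SE as bars, for doxorubicin vehicle against sham vehicle and for doxorubicin NMN against doxorubicin vehicle. Squares use all libraries, circles the larger set and triangles the smaller set, and filled symbols passed an adjusted p under 0.05. Sirt6 after doxorubicin lies at 0.62 in the larger set and at -0.56 in the smaller set.

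With NMN before doxorubicin, 3 sirtuins of 7 were higher than after doxorubicin alone, namely Sirt3, Sirt4 and Sirt5. Sirt1 and Sirt7 were lower, and Sirt2 and Sirt6 were not called. Over all genes tested, 17.5% were higher and 18.8% lower. Both comparisons use the doxorubicin vehicle libraries, so an opposite sign of the folds is built in where those libraries stand out. The calls with NMN rested on few libraries. They numbered 2 without replicate 3 or without replicate 4 of doxorubicin vehicle, 2 without replicate 2 of doxorubicin NMN and 3 without its replicate 3. Sirt3 was called in each of these cases.

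Between the NMN-treated groups, doxorubicin NMN and sham NMN, 0 of 7 sirtuins were called, with 0% of all genes tested. The log2 folds ran from -0.15 for Sirt3 to 0.25 for Sirt6, and none had an unadjusted p under 0.05. Among all genes, 1223 had an unadjusted p under 0.05 in edgeR, and DESeq2 called 21 genes. In sham hearts NMN likewise gave 0 of 7 calls, with 0% of all genes tested, 342 genes under an unadjusted p of 0.05, and 0 calls by DESeq2. The largest of these folds were 0.27 for Sirt1 (SE 0.194) and -0.24 for Sirt4 (SE 0.146). Sirt4 was at 14.4, 13.3, 14.8 and 16.4 CPM in sham NMN, all below the sham vehicle range, with an unadjusted p of 0.119. The sham NMN levels of the others were 18.5 to 20.6 CPM for Sirt1, 78.0 to 92.0 for Sirt2, 27.9 to 29.5 for Sirt3, 27.2 to 32.7 for Sirt5, 5.41 to 7.16 for Sirt6 and 13.1 to 15.1 for Sirt7.

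Whether doxorubicin acted differently with NMN was tested as an interaction. The difference was called for 4 sirtuins, 2 of them higher and 2 lower, against 9.49% higher and 8.96% lower among all genes tested. The doxorubicin effect with NMN minus that without was 1.04 for Sirt3 (SE 0.271, adjusted p = 0.016) and 0.68 for Sirt4 (SE 0.208, adjusted p = 0.034). It was -0.90 for Sirt1 (SE 0.272, adjusted p = 0.032) and -0.61 for Sirt7 (SE 0.179, adjusted p = 0.0292). For Sirt5 it was 0.52 (adjusted p = 0.0646), for Sirt2 -0.42 (adjusted p = 0.127) and for Sirt6 0.12 (adjusted p = 0.832). The call for Sirt3 held without each of the 16 libraries in turn, but not in the larger set alone, where the value was 0.57 (adjusted p = 0.142). The calls for Sirt1, Sirt4 and Sirt7 were lost without replicate 3 or replicate 4 of sham vehicle, replicate 3 of sham NMN, replicate 3 or 4 of doxorubicin vehicle, or replicate 2 or 3 of doxorubicin NMN, each of which left 1 call of 7. Without replicate 1 or 2 of sham NMN 2 calls were left.

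The balance within the family was read per length. Sirt3, Sirt4 and Sirt5 together held 41.2, 42.9, 45.3 and 43.6% of the summed sirtuin FPKM in sham vehicle and 25.4, 31.7, 17.4 and 16.3% in doxorubicin vehicle. The groups did not overlap, and the smaller set had the lowest shares. In sham NMN the share was 37.6 to 39.7%, below the sham vehicle range, and in doxorubicin NMN it was 29.2, 38.0, 40.8 and 32.6%. The summed FPKM itself varied less, with means of 40.7 for sham vehicle and 41.5 for sham NMN, then 46.6 for doxorubicin vehicle and 44.3 for doxorubicin NMN. Sirt3 and Sirt1 had the largest fall and the largest rise of the family after doxorubicin, so their ratio restates those folds. The ratio of Sirt3 to Sirt1 FPKM was 1.84 ± 0.433 in sham vehicle and 0.454 ± 0.284 in doxorubicin vehicle (SD, n = 4). Its values were 0.585 and 0.793 in the larger set of doxorubicin vehicle and 0.222 and 0.216 in the smaller set, against 1.33 to 2.27 in sham vehicle. In doxorubicin NMN it was 1.19 ± 0.430, and replicate 1, at 0.709, lay within the doxorubicin vehicle range.

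**Figure D4:**
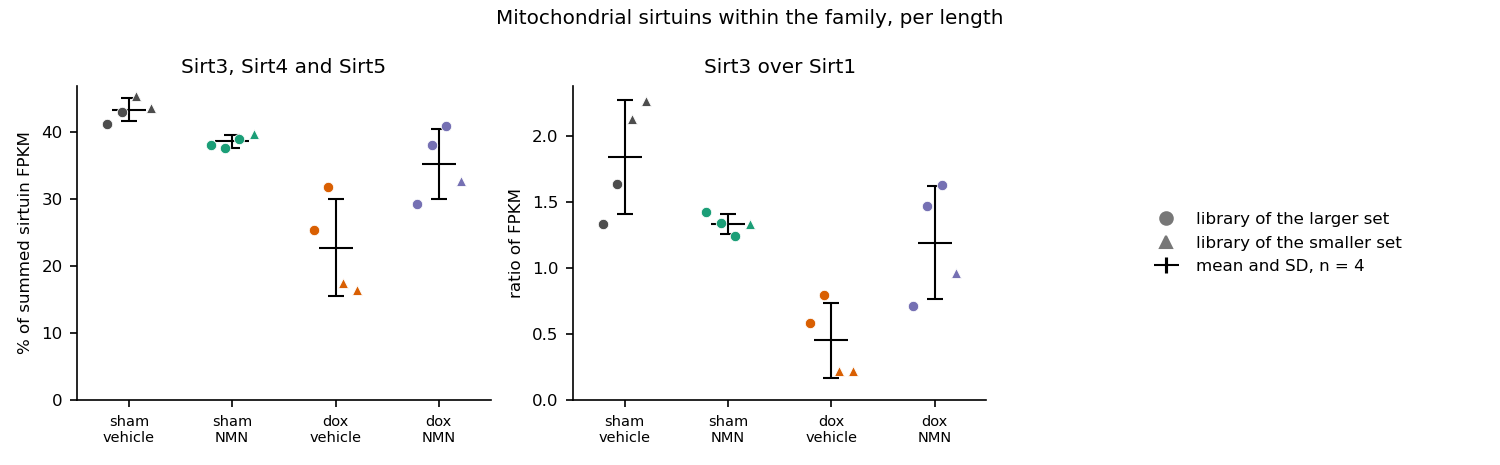
Share of the summed sirtuin FPKM held by Sirt3, Sirt4 and Sirt5 (left, percent) and ratio of Sirt3 to Sirt1 FPKM (right) in the 16 libraries, with the mean and SD of 4 libraries per group. Circles are the larger set and triangles the smaller set. The share is 41.2 to 45.3% in sham vehicle and 16.3 to 31.7% in doxorubicin vehicle.

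The hearts also differed in their cell markers. Of 8 cardiomyocyte markers, 7 fell after doxorubicin, and their summed level was 56038 to 63700 CPM in sham vehicle, 16779 to 24641 in doxorubicin vehicle and 30042 to 55767 in doxorubicin NMN. All 5 neutrophil markers rose, from a sum of 1.37 to 5.40 CPM to a sum of 31.0 to 86.3 CPM, and all 4 red cell markers fell, from 310 to 527 CPM to 0.378 to 2.49 CPM. Of 4 atrial muscle markers 3 fell, of 5 macrophage markers 2 fell, and the 5 endothelial and 5 fibroblast markers gave 1 and 1 higher with 1 and 2 lower. No muscle, neutrophil or red cell marker was at 0 in every library of a group. These lists moved with the groups in which the sirtuins changed, and their part in the sirtuin changes was not tested. In whole hearts, fewer cells of a type and less RNA per cell cannot be told apart. Between groups, Sirt3 and the cardiomyocyte sum were both lower in doxorubicin vehicle than in sham vehicle, and both were higher in doxorubicin NMN than in doxorubicin vehicle. Within doxorubicin vehicle, the sum was 24249 and 24641 CPM in replicates 3 and 4, where Sirt3 was lower. It was 16806 and 16779 CPM in replicates 1 and 2. These pairs of replicates are also the smaller and the larger set, so the sum and the set cannot be told apart there.

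NAD comes from salvage of nicotinamide and from other precursors, and 10 of 12 genes of its supply were tested. The counts of this and the following lists are to be read against the shares of all genes tested, 24.8% higher and 23.9% lower after doxorubicin and 17.5% higher and 18.8% lower with NMN. After doxorubicin 4 fell and 2 rose, with a median log2 fold of -0.26 against 0.01 over all genes tested. The 6 calls became 4 to 8 without 1 library and 2 in the larger set alone. Slc25a51, which carries NAD into mitochondria, fell from 84.2 ± 7.09 to 60.0 ± 3.68 CPM (SD, n = 4, log2 fold -0.49, adjusted p = 0.00028). Nmnat1, the nuclear NAD-forming enzyme, fell from 20.5 to 11.6 CPM (log2 fold -0.82, adjusted p = 0.0016), and Naprt, which starts NAD synthesis from nicotinic acid, from 13.9 to 9.32 CPM (-0.57, adjusted p = 0.00153). Nampt, the rate-limiting salvage enzyme, rose by 0.55 (adjusted p = 0.0132). In the larger set alone Naprt was not called (-0.37, adjusted p = 0.146). With NMN before doxorubicin, 5 of the 10 were higher and 0 lower, with a median of 0.26. These 5 calls became 1 to 7 without 1 library, with 1 call without replicate 4 of doxorubicin vehicle and 2 without its replicate 3 or without replicate 2 or 3 of doxorubicin NMN. In the larger set alone 0 were called.

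Among the proteins that sirtuins act on, the transcripts moved in both directions. Of 16 substrates of SIRT3, 5 rose and 5 fell, with a median log2 fold of -0.04. Sod2, the superoxide dismutase of the matrix, fell from 679.8 to 374.5 CPM (log2 fold -0.86, adjusted p = 7.2e-05), and Opa1, the fusion factor of the inner membrane, fell by 0.69 (adjusted p = 2e-05). Of 11 tested substrates of SIRT4 and SIRT5, 7 fell and 2 rose, with a median of -0.48. They included Mccc2 (-0.82, adjusted p = 7.6e-06) and Mccc1 (-0.64, adjusted p = 1.1e-05), the subunits of the leucine-degrading carboxylase that SIRT4 acts on. With NMN 6 of the 11 were higher and 1 lower. Those 7 calls became 4 to 9 without 1 library, with 4 without replicate 3 of doxorubicin NMN.

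Of 16 nuclear and cytosolic substrates of SIRT1, SIRT2, SIRT6 and SIRT7, 5 rose and 2 fell, close to the shares over all genes, with a median log2 fold of 0.01. Rela, a subunit of NF-kappa B, rose from 30.6 to 51.8 CPM (0.76, adjusted p = 0.00031), and Stk11, the kinase LKB1, rose by 0.50 (adjusted p = 0.00033). Parp1, the DNA damage sensor that also consumes NAD, fell from 63.6 to 38.7 CPM (-0.72, adjusted p = 6.1e-05). With NMN 2 of the 16 were higher and 4 lower, and these 6 calls became 3 to 7 without 1 library, with 3 without replicate 4 of doxorubicin vehicle. Of 8 regulators and cofactors of SIRT1, 2 fell and 0 rose, and 1 was called without replicate 1 or 2 of sham vehicle or replicate 3 or 4 of doxorubicin vehicle. Those were Hic1, a repressor of Sirt1 in human and mouse cells (-1.03, adjusted p = 0.00494, and -0.45 in the larger set, adjusted p = 0.188), and Ppargc1a, the coactivator PGC-1 alpha (-0.64, adjusted p = 0.0306, and -0.25 in the larger set, adjusted p = 0.0973). With NMN 2 of the 8 were higher and 1 lower. E2f1 was at 0.731 CPM in sham vehicle and 0.236 in doxorubicin vehicle and was not called (adjusted p = 0.0663).

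The other histone deacetylases, which need zinc in place of NAD, did not share 1 direction. Of 11, 2 rose and 3 fell after doxorubicin, with Hdac6, the other tubulin deacetylase, at 0.59 (adjusted p = 0.00039), Hdac9 at -1.15 (adjusted p = 0.00052) and Hdac2 at -0.42 (adjusted p = 0.00109) on the log2 scale. In the larger set alone Hdac2 was not called (-0.28, adjusted p = 0.0517). With NMN 2 were higher and 2 lower. Of 10 genes for mitochondrial matrix and import proteins, used as a reference for the compartment, 3 fell and 1 rose, with a median of -0.09. Cs, citrate synthase, fell by 0.79 (adjusted p = 1.7e-05) and Tfam, the mitochondrial DNA packaging factor, fell by 0.58 (adjusted p = 0.00043), while Tomm20 of the import pore rose by 1.09 (adjusted p = 0.00013). With NMN 2 of these 10 were higher and 1 lower, and 5 were called without replicate 2 of doxorubicin vehicle.

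Of 13 circadian clock genes, 2 rose and 1 fell after doxorubicin over all libraries. Cry2 rose by 1.26 (adjusted p = 0.00477) and Per1 by 1.61 (adjusted p = 0.00687), and Dbp fell by 2.46 (adjusted p = 0.0137). In the larger set alone Cry2 was not called (0.22, adjusted p = 0.249), and in the smaller set alone Dbp had a fold of 0.07 (adjusted p = 0.799). In sham vehicle Dbp was at 63.1 to 73.6 CPM in the larger set and 4.69 to 6.40 in the smaller set, and Per3 at 88.5 to 90.6 and 8.69 to 9.92 CPM, while Cry1 overlapped between the sets, at 15.1 to 16.3 and 14.3 to 15.7 CPM. In doxorubicin vehicle Dbp was at 7.26 to 8.00 CPM in the larger set and 4.73 to 6.88 in the smaller set. Sirt1 was higher in the smaller set of doxorubicin vehicle and lower in the smaller set of sham vehicle, whereas Arntl was higher in the smaller set of both.

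Genes with the pattern most like each sirtuin were ranked by the root mean square difference of centred log2 CPM over the 16 libraries. Nearest to Sirt3 were Mmachc (0.105), a vitamin B12 processing gene, Rassf3 (0.106) and Dnajc28 (0.108), against a median of 0.630 for all tested genes. Nearest to Sirt5 were Esrra (0.0949), Bphl (0.0954) and Vegfb (0.0993), and nearest to Sirt4 were Fut8 (0.107), Mapk14 (0.112) and Cluh (0.114). Esrra was at 134, 140, 153 and 124 CPM in sham vehicle and at 121, 124, 79.4 and 73.4 CPM in doxorubicin vehicle, low in the same libraries as Sirt5. Nearest to Sirt1 were Fnbp4 (0.127), Dnajb9 (0.144) and Ranbp2 (0.145), nearest to Sirt2 Zscan12 (0.0756), Cep89 (0.0786) and Mgst3 (0.0830), and nearest to Sirt7 Pik3c3 (0.1002), Tnks (0.104) and Sp1 (0.111). Sirt6, the sirtuin with the lowest counts, had its nearest genes farther off, with Gatd1 at 0.175, Usp43 at 0.177 and Zfp35 at 0.185. The median for all tested genes was 0.474 there, and the root mean square of Sirt6 around its own mean was 0.337. How much its low counts add to these distances was not tested. The likeness covers all libraries, so it follows the groups and the sets alike.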

How the data were processed

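Per the submitters' processing notes, the authors aligned reads with HISAT2 2.1.0 to GRCm38 (mm10) and counted them with HTSeq 0.6.0. Neither the strand setting nor the annotation release is stated there. The deposited counts are whole reads per gene. The deposited FPKM values equal those counts divided by library total and gene length. From the counts, genes were filtered with filterByExpr, scaled by TMM and tested over all 4 groups in 1 fit with edgeR 4.0.16 (R 4.3.3) by its quasi-likelihood test, with Benjamini-Hochberg adjustment over the 14716 genes tested and a threshold of 0.05. The SE is the log2 fold divided by the root of F. DESeq2 1.42.0 and limma 3.58.1 were alternatives. The scripts were tested on simulated data. Totals of 13927970 to 16400069 counts limit precision most for the lowest genes. The SEs and p-values come from the spread between libraries. Gene positions and exon overlaps came from GENCODE M21, and promoters from RefSeq (GRCm38.p6). The sirtuins and the gene lists were chosen with earlier results of these data known. The text names all 7 sirtuins, the counted genes that overlap them or start within 1 kb of their start, the 3 members of each list with the smallest p after doxorubicin, and the 3 genes most like each sirtuin. One gene that this rule names is not reported here. Nampt, Arntl, Per3 and Cry1 were named after their values were seen. Same-numbered libraries did not vary together in all pairs (correlations from -0.117 to 0.405), so the numbers were not used to pair them.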

Additional observations from a re-analysis of the deposited data

Results flagged for a closer look

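In 2 of 28 groups of 4 libraries, 1 library lay far from the other 3 by Dixon's test at the 95% level, which sets the gap to the nearest library against the whole range of the group. Sirt1 in sham NMN was at 20.6 CPM in replicate 3 (gap 0.895 of the range), above the other 3. Sirt4 in sham vehicle was at 18.3 CPM in replicate 3 (gap 0.870 of the range), above the other 3. Chance gives such a gap in about 1 in 20 groups.

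The doxorubicin effect differed with and without NMN, by the interaction term over all libraries, for 4 sirtuins. The effect with NMN minus that without was -0.90 for Sirt1, 1.04 for Sirt3, 0.68 for Sirt4 and -0.61 for Sirt7 on the log2 scale. None of the 4 differences was called in the larger set of libraries alone. In the smaller set alone the differences were -1.25, 1.61, 0.90 and -0.70 in the same order. Each NMN group has 1 library there, so the spread within the NMN groups is not measured. With the set as a term in the edgeR fit all 4 were called (adjusted p = 0.028, 0.00899, 0.0255 and 0.0208). Such a term shifts every group alike, so a doxorubicin effect that differs between the sets stays in these values. The vehicle groups also hold more smaller-set libraries than the NMN groups.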

How the results depend on the processing

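The count of 6 sirtuins called after doxorubicin was 6 without each library in turn, 5 with only the groups compared in the fit and 4 in the larger set. In the comparison of doxorubicin NMN with doxorubicin vehicle, 5 were called, against 1 with only the groups compared in the fit, 1 in the larger set and 2 to 6 without 1 library. Between doxorubicin NMN and sham NMN Sirt2 had a fold of 0.55 in the smaller set, where each of these groups has 1 library (114.2 and 78.0 CPM). The 4 interaction calls became 7 with limma-voom library weights, 0 in the larger set and 1 to 6 without 1 library. The cause of these moves was not tested. The smaller set was added as an alternative after seeing the data.

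Of 1008 alternative sirtuin folds, 916 kept direction and side of the threshold, 59 lost the call, 15 gained one and 18 changed sign. Sirt6 after doxorubicin changed sign with library weights (-0.39) and in the smaller set (-0.56), and in the larger set its NMN value was -0.35 and its interaction -0.35. Without 1 library these ran from -0.078 to 0.36, -0.063 to 0.37 and -0.10 to 0.34. For sham NMN against sham vehicle, signs changed for Sirt2 (-0.062, smaller set), Sirt5 (0.087, larger set, and -0.14 to 0.023 without 1 library) and Sirt6 (-0.012 with the set as a term, and -0.029 to 0.10). For doxorubicin NMN against sham NMN they changed for Sirt1 (-0.086 with library weights, and -0.028 to 0.19), Sirt5 (-0.028, larger set) and Sirt7 (0.040, smaller set, and -0.13 to 0.050). Dbp after doxorubicin was 0.072 in the smaller set, and E2f1 with NMN ran from -0.11 to 1.24 without 1 library. Dnajc12 with NMN had a fold of -0.0069, against 0.061 with upper-quartile scaling, 0.019 with no filter, 0.11 with library weights, 0.0085 and 0.0028 on FPKM with pseudocounts of 0.1 and 1, 0.22 in the smaller set and -0.074 to 0.063 without 1 library. The Sirt5 fall after doxorubicin was lost with only the groups compared (adjusted p = 0.0509), the Sirt4 interaction on FPKM (0.057 and 0.0542) and the Sirt7 interaction with no filter (0.0822). The Ankrd24 fall was lost with only the groups compared (0.0729).

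With the replicate number as a block, the Sirt4 interaction was 0.68 (adjusted p = 0.0509), and all genes called numbered 7186, 5347, 0, 0 and 2614. It changed no other sirtuin call. Among all genes, the 7170 called after doxorubicin became 4128 in the larger set. The 5336 called with NMN became 8540 with library weights, 3379 with only the groups compared and 3217 in the larger set. For NMN in sham hearts the count of 0 became 2 in the larger set. For doxorubicin NMN against sham NMN it became 4 with no filter, 21 with DESeq2, 14 with library weights and 20 without replicate 3 of doxorubicin NMN. The 2714 interaction calls became 7010 with library weights, 1365 in the larger set and 1730 to 4178 without 1 library. Counts with an NMN group in the smaller set are left out, since such a group has 1 library there. On FPKM with a pseudocount of 1 the interaction gave 1027 higher and 1483 lower, against 1396 and 1318.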
